A study of Mus musculus with 6 samples.

Results

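The genes described here encode 9 scaffold proteins of the postsynaptic density: Dlgap1, Dlgap2, Dlgap3, Dlgap4, Shank1, Shank2, Shank3, Dlg4 and Dlg2. They were taken by name from a table of 56748 mouse genes, and all 9 were detected and passed the filter on low values. The libraries came from homogenates labelled brain, from mice given MCF10DCIS cells by the intraductal route that the series title names. This is a human line that models ductal carcinoma in situ, and here it carried CD63, a vesicle membrane protein, fused to the light-producing enzyme NanoLuc. Brains were collected at 3 or 28 days post-implantation, with 3 libraries per time, and every mouse in both groups had received the implant. No unimplanted brain was analysed here, so each comparison is between 2 times after the same procedure. Strain and age are not in the labels. Nothing in them states that the 3 libraries of a time are 3 animals, and the p-values therefore refer to spread between libraries, part of which may be technical.

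The postsynaptic density is the protein layer under the membrane of excitatory synapses that holds glutamate receptors in place. Its scaffolds form stacked layers. The Dlg proteins lie nearest the membrane and bind NMDA receptors and the auxiliary subunits of AMPA receptors through PDZ domains, the Dlgap proteins bind the guanylate kinase domain of Dlg proteins, and the Shank proteins bind the tail of Dlgap proteins and reach on to Homer proteins and the actin of the spine. Dlgap3 and Shank3 are known for their part in corticostriatal synapses, and Dlg4 is a widely used marker of the excitatory postsynapse.

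Recovered depth ran from 11958137 to 16059196 reads per library, and a scaffold gene had 495 to 13160 reads in a library. Values below are normalized counts, that is reads divided by a size factor for each library. Differences are day 28 minus day 3 on the log2(normalized count + 1) scale, from limma, with p-values adjusted over all 16162 genes tested and a threshold of 0.05. Day 3 replicates 1 and 2 stood apart from the other 4 libraries in transcripts of the cerebellum. The summed level of 10 cerebellar granule and Purkinje cell markers was 36353 and 36793 normalized counts in those libraries, against 10325 in day 3 replicate 3 and 12304, 12231 and 15716 at day 28. Day 3 replicate 2 was also rich in transcripts of 8 listed liver and plasma genes, with 114286 normalized counts against 11339 to 15224 elsewhere. In the other libraries most of these counts were of Ttr and Trf. Alb alone had 67650 normalized counts in day 3 replicate 2 and 21 to 1139 elsewhere.

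Dlgap2 rose at day 28 and was the only one of the 9 scaffold genes past the threshold. Over all tested genes 31 passed (0.192%), 11 of them higher at day 28 (0.0681%) and 20 lower (0.124%), and Dlgap2 was 10th of those 11 by size. All 9 scaffold genes had a positive difference, against 48.6% of all tested genes, and 4 had groups that did not overlap with day 28 above day 3, against 9.71% of all tested genes in that direction, 9.21% in the other and 18.9% in either. The median difference of the 9 genes was 0.27, against -0.0091 over all tested genes. In a homogenate, more cells of a type and more RNA per cell cannot be told apart.

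The 4 Dlgap genes encode the linkers between the Dlg and Shank layers. Dlgap2 (ENSMUSG00000047495) had 591, 569 and 602 normalized counts in the day 3 libraries, in replicate order, and 942, 1026 and 930 in those of day 28. The 3 day 3 libraries were close together, among them the 2 rich in cerebellar transcripts, and the groups did not overlap. The mean rose from 587 ± 17.2 to 966 ± 52.3 (SD, n = 3), a log2 difference of 0.72 (SE 0.10, 95% interval 0.50 to 0.93, limma adjusted p = 0.0345). The day 3 SD of Dlgap2 was below the 24.9 normalized counts that counting error alone gives, whereas each of the 8 other scaffold genes had an SD above its counting error in both groups. The Dlgap2 difference ran from 0.67 to 0.74 over the 17 alternative settings. It was bound to be 0.72 with the other filters, no intensity trend and the replicate block, which leave the group means unchanged. The call was kept in 8 of the 17. Leaving out the second day 3 library ended it (limma adjusted p = 0.133), as did leaving out day 28 replicate 1, 2 or 3 (limma adjusted p = 0.251, 0.244 and 0.158), settings in which 1 or 2 genes passed in the whole table.

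Dlgap1 (ENSMUSG00000003279), the family member with the most reads, had 5680, 6739 and 7470 normalized counts in the day 3 libraries, and 7983, 8409 and 7654 in those of day 28. The day 3 libraries were spread widely and replicate 3 lay just under the lowest day 28 library. The difference was 0.28 (SE 0.11, 95% interval 0.03 to 0.53) and did not pass (limma adjusted p = 0.315), and it was 0.17 without day 3 replicate 1. Dlgap3 (ENSMUSG00000042388) had 3839, 4603 and 5543 in the day 3 libraries, and 5459, 5831 and 5606 in those of day 28. Its day 3 replicate 3 lay inside the range of the day 28 libraries. Its difference was 0.29 (SE 0.13, 95% interval -0.0023 to 0.58, limma adjusted p = 0.375), 0.16 without day 3 replicate 1 and 0.02 without day 3 replicates 1 and 2. Dlgap4 (ENSMUSG00000061689) had 3176, 3742 and 4267 in the day 3 libraries, and 3965, 4132 and 3857 in those of day 28. Here day 3 replicate 3 was above all 3 day 28 libraries. The difference of 0.11 (95% interval -0.15 to 0.36, limma adjusted p = 0.732) changed sign with the cerebellar marker level as a covariate, without day 3 replicate 1, and without day 3 replicates 1 and 2.

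**Figure D1:**
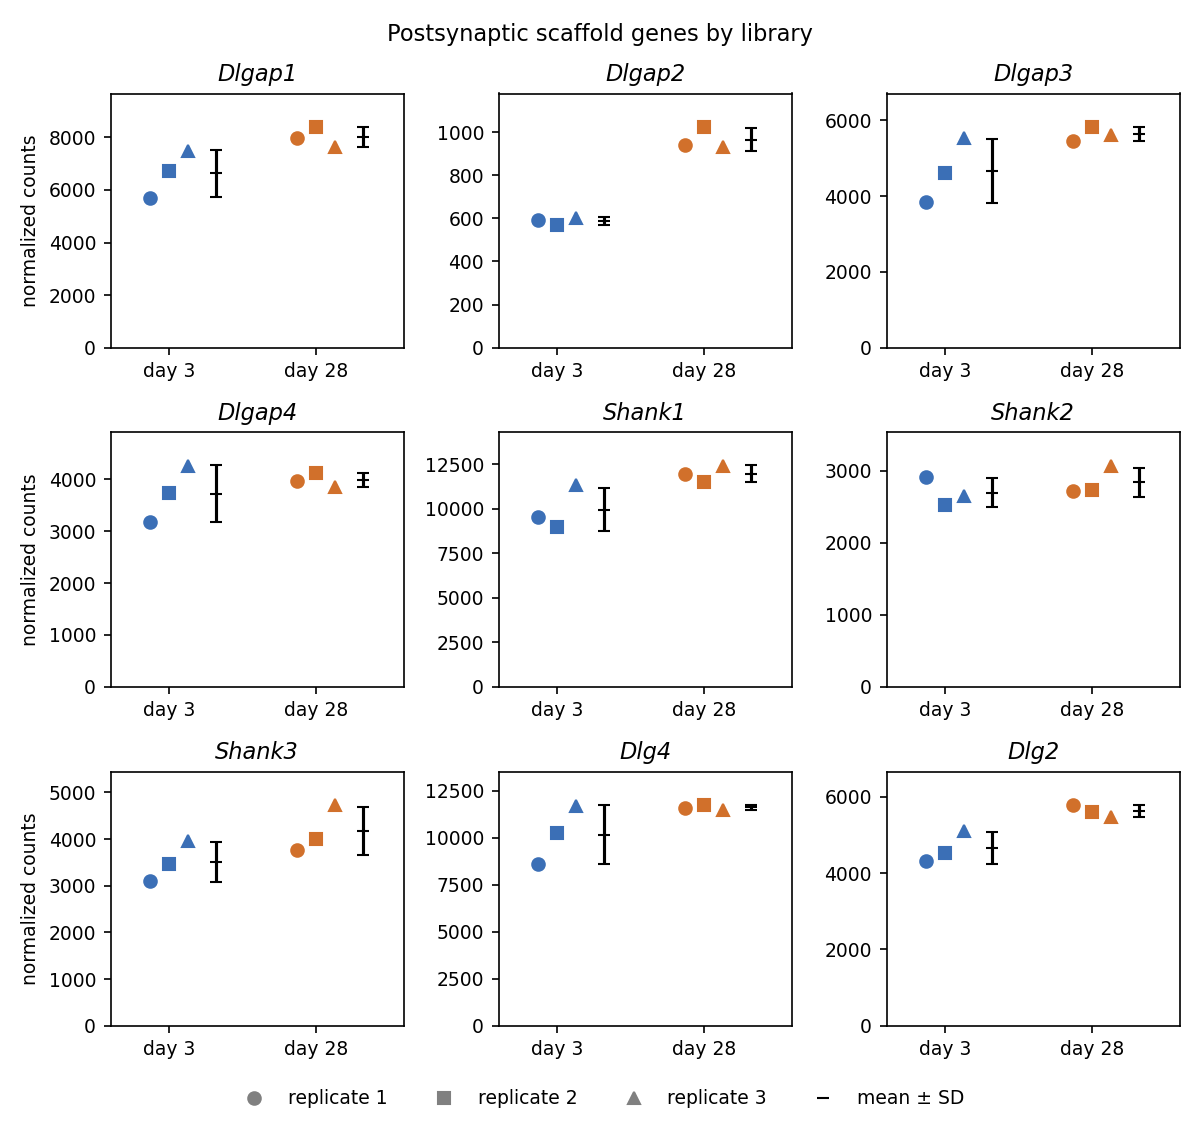
Normalized counts of the 9 scaffold genes in each library, day 3 in blue and day 28 in orange, with circles, squares and triangles for replicates 1, 2 and 3 and black bars for the mean and SD of 3 libraries. Dlgap2 lies between 569 and 602 at day 3 and between 930 and 1026 at day 28, while in most of the other genes day 3 replicate 3 lies close to the day 28 libraries.

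The start regions of 3 scaffold genes are shown because each has 1 start in the RefSeq promoter table (GRCm38.p6), so that the region can be named without a choice between starts. In all, 6 of the 9 genes had an entry, with 11 starts among them. Dlgap1 had 2 starts and Dlg4 and Dlg2 had 3 each. Each window is the 250 bases before the start on the plus strand, and capitals mark GC boxes, the letters GGGCGG on either strand. The windows are chr4:127172630-127172879 for Dlgap3, chr2:156720715-156720964 for Dlgap4 and chr15:89499358-89499607 for Shank3.
Dlgap3: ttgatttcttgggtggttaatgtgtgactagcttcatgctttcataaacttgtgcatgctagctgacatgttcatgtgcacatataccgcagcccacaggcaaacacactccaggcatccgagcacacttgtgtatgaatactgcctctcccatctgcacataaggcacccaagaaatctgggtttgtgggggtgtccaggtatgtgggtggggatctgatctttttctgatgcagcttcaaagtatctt
Dlgap4: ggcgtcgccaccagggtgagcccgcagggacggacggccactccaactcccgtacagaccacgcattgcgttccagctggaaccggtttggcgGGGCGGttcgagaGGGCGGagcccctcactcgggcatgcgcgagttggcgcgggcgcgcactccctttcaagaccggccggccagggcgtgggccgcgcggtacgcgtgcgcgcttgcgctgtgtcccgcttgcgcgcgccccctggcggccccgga
Shank3: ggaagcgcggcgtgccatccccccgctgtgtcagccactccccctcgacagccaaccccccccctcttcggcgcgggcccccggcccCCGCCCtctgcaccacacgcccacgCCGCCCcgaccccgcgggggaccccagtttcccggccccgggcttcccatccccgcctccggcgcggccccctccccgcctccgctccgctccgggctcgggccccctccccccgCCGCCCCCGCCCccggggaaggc

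The Dlgap4 window held 37 CpG pairs and 2 GC boxes, more CpG than 97.8% of the 32851 windows of this length in the table. The Shank3 window held 31 CpG pairs and 4 GC boxes. The Dlgap3 window held 2 CpG pairs and no GC box, against a median of 6 CpG pairs over all windows and GC boxes in 32.7% of them. The search also covered the letters TGACGTCA, TATAAA and CACGTG on both strands, found in 1.55%, 12.4% and 6.02% of all windows, and none of these letters was in the 3 windows shown. The CpG-rich and CpG-poor starts belong to genes whose differences overlapped within their intervals, and no measurement at the starts themselves was analysed here.

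The Shank genes encode the large scaffolds of the deeper layer. Shank1 (ENSMUSG00000038738) stood at 9530, 8992 and 11316 normalized counts at day 3 and at 11980, 11478 and 12425 at day 28. Every day 28 library was above every day 3 library, by a small margin over day 3 replicate 3. The difference was 0.27 (SE 0.10, 95% interval 0.04 to 0.51) and did not pass (limma adjusted p = 0.300). Shank2 (ENSMUSG00000037541) stood at 2917, 2521 and 2656 at day 3 and at 2716, 2730 and 3074 at day 28. It was the only scaffold gene whose highest day 3 library was replicate 1, and the groups overlapped. Its difference was 0.07 (SE 0.09, limma adjusted p = 0.777), with an interval of -0.14 to 0.29 that does not reach the difference of Dlgap2, and it ran from 0.02 to 0.13 over the fits lacking 1 library. Shank3 (ENSMUSG00000022623) stood at 3096, 3465 and 3961 at day 3 and at 3757, 4008 and 4736 at day 28, with the groups overlapping through day 3 replicate 3 and day 28 replicate 1. The difference was 0.25 (SE 0.12, 95% interval -0.03 to 0.52, limma adjusted p = 0.417), 0.16 with day 3 replicate 1 left out and 0.15 with day 28 replicate 3 left out.

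The Dlg genes encode the membrane-near scaffolds. Dlg4 (ENSMUSG00000020886) had 8579, 10224 and 11674 normalized counts in the day 3 libraries, and 11573, 11751 and 11475 in those of day 28. The later libraries were almost equal, and day 3 replicate 3 was among them while replicates 1 and 2 were lower. The difference was 0.20 (SE 0.12, 95% interval -0.06 to 0.47, limma adjusted p = 0.490). Leaving out day 3 replicate 1 gave 0.086, leaving out replicate 3 of that day gave 0.31, and leaving out its replicates 1 and 2 gave -0.0092. Dlg2 (ENSMUSG00000052572), a close relative with a like set of partners, stood at 4312, 4520 and 5119 at day 3 and at 5797, 5607 and 5476 at day 28. The groups did not overlap. The difference was 0.28 (SE 0.09, 95% interval 0.07 to 0.48, limma adjusted p = 0.232) and had the second smallest p of the 9 genes.

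**Figure D2:**
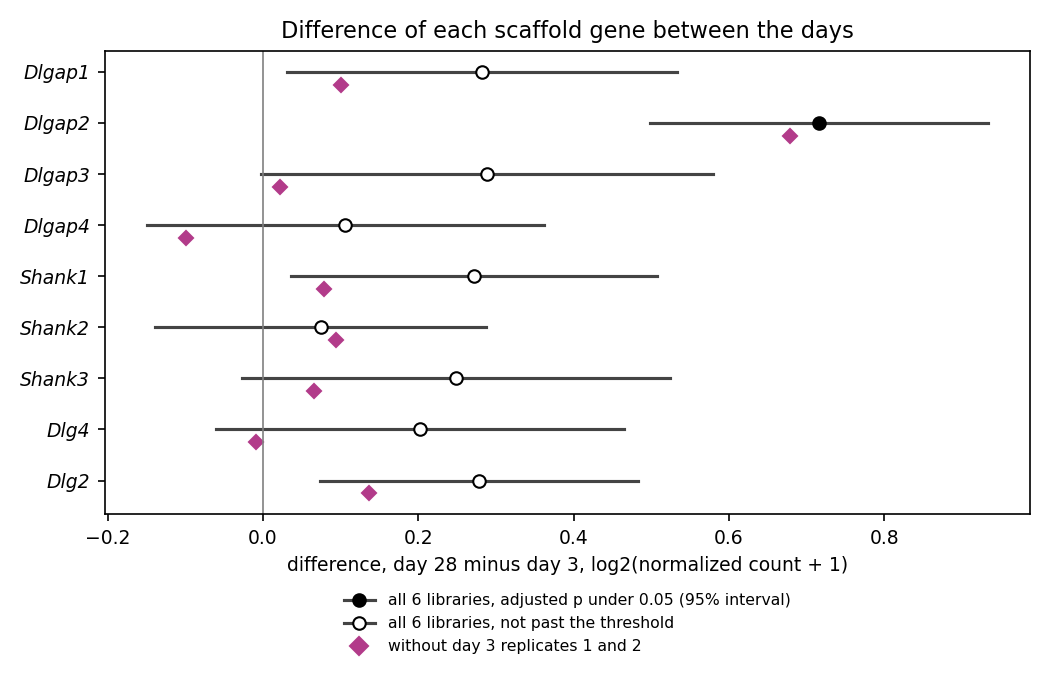
Difference of each scaffold gene between day 28 and day 3 on the log2(normalized count + 1) scale, with circles and 95% intervals from all 6 libraries (filled where the adjusted p was under 0.05) and diamonds for the same fit without day 3 replicates 1 and 2. Dlgap2 sits at 0.72, and at 0.68 without these libraries, where it no longer passed (limma adjusted p = 0.216), while Dlg4 moves from 0.20 to -0.0092.

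The 9 genes did not share one pattern over the libraries. Within day 3, 6 of them (Dlgap1, Dlgap3, Dlgap4, Shank3, Dlg4 and Dlg2) were lowest in replicate 1 and highest in replicate 3. Day 3 replicate 3 lay at or above the lowest day 28 library in 4 (Dlgap3, Dlgap4, Shank3 and Dlg4), whereas day 3 replicate 2 was below every day 28 library in all 9 and replicate 1 in 8, all but Shank2. Summed over the 9 genes, the level was 41719, 45374 and 52608 normalized counts at day 3 and 54173, 54972 and 55232 at day 28. Without day 3 replicates 1 and 2, a setting chosen after the data were seen in which the lone day 3 library is assumed to vary like the others, the median difference of the 9 genes was 0.08, 7 of the 9 were positive and Dlgap2 had 0.68 without passing (limma adjusted p = 0.216). In that setting Dlgap1 had 0.10, Shank1 0.08, Shank3 0.07 and Dlg2 0.14. With the mean cerebellar marker level as a covariate, the median was 0.14 and Dlgap2 had 0.67 (limma adjusted p = 0.288).

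Markers of regions and of other cell types also differed between the libraries. The 10 cerebellar markers had 0 positive differences, a median difference of -3.23 and 0 past the threshold. Gabra6, the granule cell receptor subunit that defines these cells, had 2295 and 2117 reads in day 3 replicates 1 and 2, and 211 in day 28 replicate 3. It had 0 reads in the 3 other libraries. The 10 striatal medium spiny neuron markers were all positive, with a median of 0.76. Of these, 8 had groups that did not overlap with day 28 higher, against 9.71% of all tested genes, and 1 passed. This was Rgs9, which regulates G protein signalling in these neurons. It had 923, 899 and 1050 normalized counts at day 3 and 2399, 1591 and 1984 at day 28. The summed level of the 10 markers was 19109, 21244 and 27982 at day 3 and 33871 to 41734 at day 28. Of 10 excitatory forebrain neuron markers 9 were positive (median 0.31, 0 past the threshold), with summed levels of 24239 to 36661 at day 3 and 33089 to 36658 at day 28. The 10 pan-neuronal markers had a median of -0.02 and 0 past the threshold. The groups did not overlap in 3 that were lower at day 28 (Nefm, Nefl and Stmn2), against 9.21% of all tested genes. The same held for 2 that were higher (Syt1 and Map2), against 9.71%. Summed levels of the 10 were 116365 to 124248 at day 3 and 118557 to 124548 at day 28. Of 10 oligodendrocyte markers 8 had groups that did not overlap with day 28 lower, against 9.21% of all tested genes, and 0 passed (median -0.49), with summed levels of 115333 to 137190 at day 3 and 78294 to 97127 at day 28. Of 10 midbrain and hindbrain markers 8 were tested. Summed levels of the 10 were 567 to 2229 at day 3 and 170 to 445 at day 28. Of the 8, 5 had groups that did not overlap with day 28 lower, against 9.21% of all tested genes. The 2 that passed were Slc6a3 and En1, both lower at day 28. Slc6a3 had 200, 183 and 156 reads in the day 3 libraries, then 4, 2 and 3. En1 had 44, 63 and 51, then 0 in each day 28 library. Day 3 replicate 3 was thus like replicates 1 and 2 in these genes. With replicates 1 and 2 left out, that lone day 3 library was still above every day 28 library in both genes. Of 10 astrocyte markers 1 passed and was lower (median -0.50), while 0 of 10 microglia markers and 0 of 8 liver and plasma genes passed (medians -0.24 and -0.03). In the astrocyte and microglia lists alike, 4 markers had groups that did not overlap with day 28 lower and 1 with day 28 higher. The shares over all tested genes were 9.21% and 9.71%. The part of tissue and cell makeup in the scaffold differences was not tested, apart from the cerebellar covariate and the left-out libraries. Makeup that followed day in every library, as the reads of Slc6a3 and En1 did, cannot be told apart from day by either.

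No direct measure of RNA quality was analysed here. Of a list of 15 long transcripts 14 had a positive difference, against 48.6% of all tested genes, and 0 passed (median 0.17). The mean deviation of the 15 from the 6-library mean was 0.26, -0.32 and -0.19 in the day 3 libraries, then 0.10, -0.0088 and 0.16 in those of day 28. For the 9 scaffold genes it was -0.26, -0.17 and 0.02, then 0.11, 0.15 and 0.15. Day 3 replicate 1 held the highest long-transcript level and the lowest scaffold level. Day 3 replicate 2 was below the mean in both lists, and day 28 replicates 1 and 3 were above it in both. The part of RNA quality in the scaffold differences was not tested.

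**Figure D3:**
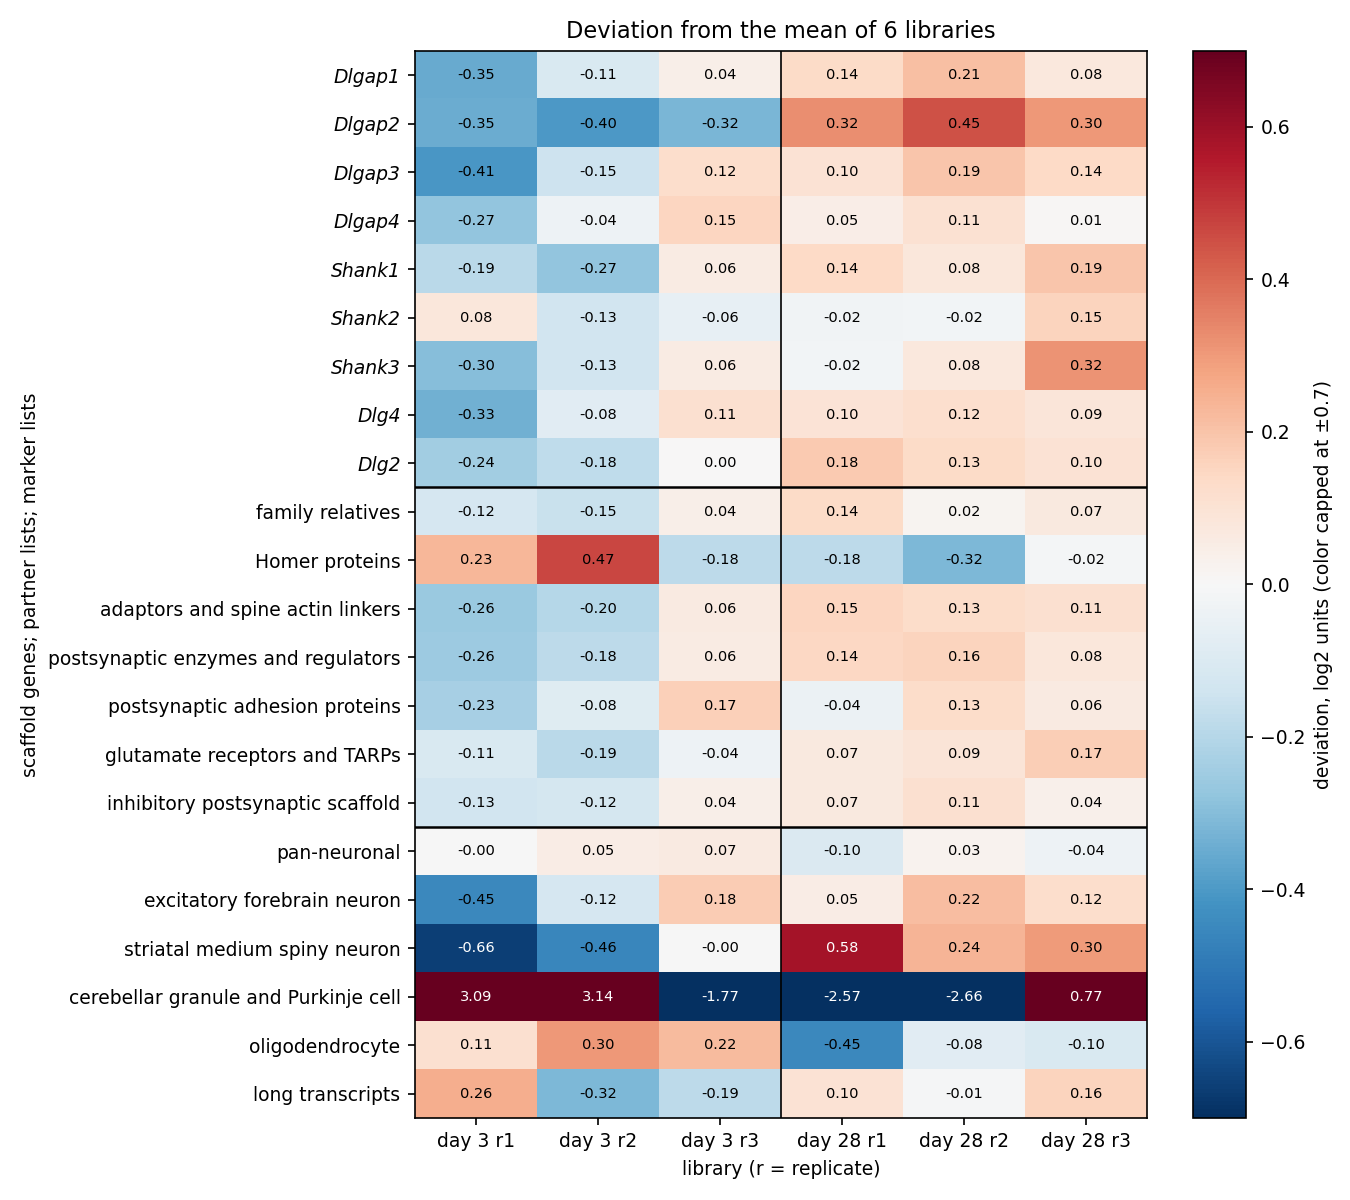
Deviation of each library from the 6-library mean, in log2 units, for the 9 scaffold genes (top), the mean of each list of partner genes (middle) and of marker genes (bottom), with red above and blue below the mean and the color capped at the ends of the scale. Dlgap2 is below the mean in all 3 day 3 libraries, while most other scaffold genes and partner lists are lowest in day 3 replicates 1 and 2.

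Within the Dlgap family, the shares of Dlgap2 and Dlgap4 had groups that did not overlap. Shares were computed within each library, so that they do not depend on its scaling. Levels were taken per kilobase of the longest coding transcript. Dlgap2 made up 5.27%, 4.31% and 3.97% of the family at day 3 and 6.09%, 6.26% and 6.07% at day 28. Dlgap4 made up 26.3%, 26.3% and 26.1% at day 3 and 23.8%, 23.4% and 23.4% at day 28. Every day 28 library was above every day 3 library for Dlgap2 and below it for Dlgap4. The mean share of Dlgap2 was 4.51% ± 0.675 and 6.14% ± 0.106 and that of Dlgap4 26.2% ± 0.128 and 23.5% ± 0.224 (SD, n = 3). For each the two-sided exact permutation test gave p = 0.10, the smallest that 3 against 3 libraries allow (adjusted p = 0.55 over the 11 shares tested). Shares within a family depend on each other, and the level of Dlgap4 itself did not fall (mean 3728 normalized counts at day 3 and 3985 at day 28). Dlgap2 was taken for its rise, so its share adds no separate support. The share of Dlgap1 (30.9% to 32.1% at day 3, 31.4% to 32.4% at day 28) and that of Dlgap3 (36.6% to 39.1%, then 37.7% to 39.2%) overlapped between the days. The same held with exon-union lengths, where Dlgap2 went from 5.01% to 6.76% and Dlgap4 from 22.8% to 20.3%.

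**Figure D4:**
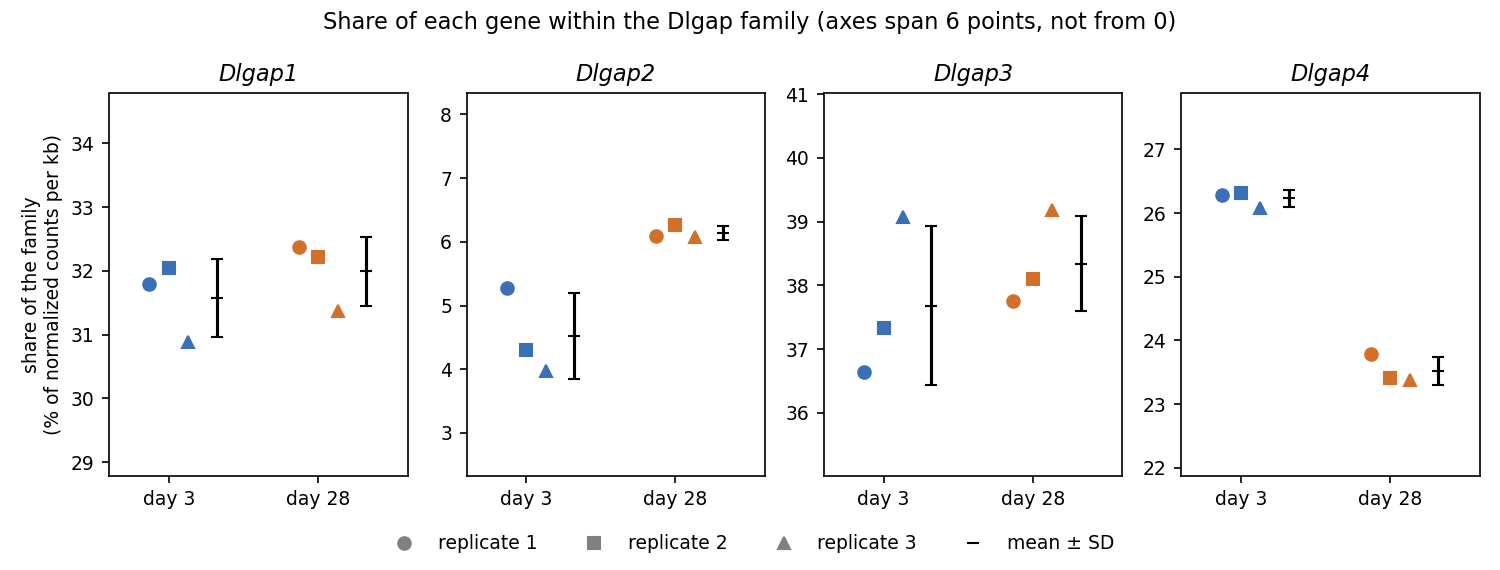
Share of each Dlgap gene in the summed level of the 4 genes per kilobase, in percent, for each library, with the mean and SD of 3 libraries in black and axes that do not start at 0. The share of Dlgap2 is higher and that of Dlgap4 lower in all 3 day 28 libraries than in any day 3 library.

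In the Shank and Dlg families no share had groups that were apart. Shank1 held 56.5% ± 1.55 of the Shank family at day 3 and 58.1% ± 1.90 at day 28, Shank2 16.9% ± 2.02 and 15.0% ± 0.163, and Shank3 26.6% ± 1.91 and 26.9% ± 1.74, each with overlapping groups. Among Dlg1 to Dlg4, Dlg4 held 52.3% ± 1.45 and 51.0% ± 0.679 and Dlg2 19.5% ± 0.987 and 20.0% ± 0.354, again with overlap. The level of Dlgap2 was also set against each other scaffold gene in the same library, as a description only, since Dlgap2 was taken for its rise. The log2 ratio of Dlgap2 to Dlg4 was -3.86, -4.17 and -4.27 at day 3 and -3.62, -3.52 and -3.62 at day 28. In all 8 such ratios every day 28 library was above every day 3 library, with mean shifts from 0.43 against Dlgap3 to 0.64 against Shank2. All 8 share the Dlgap2 values.

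Per kilobase of the longest coding transcript, Dlg4 was the most abundant of the 9 over all 6 libraries, with 1720 ± 199 normalized counts per kilobase (SD over 6 libraries, both days together). It was followed by Dlgap3 with 1223 ± 182, Shank1 with 1115 ± 140.3 and Dlgap1 with 1021 ± 136. Dlgap3 was above Shank1 in 5 of 6 libraries and Shank1 above Dlgap1 in 4 of 6, so these neighbours do not differ beyond their spread. Then came Dlgap4 with 795 ± 78.9, Dlg2 with 658 ± 77.5, Shank3 with 521 ± 75.5, Shank2 with 308 ± 21.9 and Dlgap2 with 172 ± 46.7, each below its predecessor in all 6 libraries. Dlgap2 was thus the least abundant scaffold transcript at both times, with 130.4 and 215 normalized counts per kilobase. By exon-union length, which counts every annotated exon, Dlgap2 and Shank2 were again the lowest, while Dlgap3 and Shank1 were above Dlg4. Overlapping annotated genes shared at most 3.22% of the exon bases of a scaffold gene, and Dlgap2 shared none.

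Most partner genes of the scaffold had a positive difference, and none passed the threshold in the fit of all 6 libraries. Of 70 listed partners 69 were tested and 52 had a positive difference, against 48.6% of all tested genes. With limma 0 passed, while 32 had an unadjusted p under 0.05, as did 13.4% of all tested genes. With voom on the recovered reads 0 passed and 34 had an unadjusted p under 0.05. The median difference was 0.25, and 28 of the 69 (40.6%) had groups that did not overlap with day 28 higher, against 9.71% of all tested genes. These counts rest in part on single libraries. Without day 3 replicate 3, 23 partners and 623 genes in all (3.85%) passed, among them Homer1, Homer2, Homer3, Lrrc7, Ppp1r9a, Arhgap32, Lrrtm2, Grin2b, Grm5 and Slitrk3. In that setting only the day 3 libraries rich in cerebellar transcripts remained, so day and cerebellar content could not be told apart. With library weights 3 passed, namely Ppp1r9a, Arhgap32 and Grin2b, and 69 genes in all (0.427%). Without day 3 replicates 1 and 2, 40 of the 69 were positive and 0 passed.

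Among family relatives, Dlg1, which traffics receptors, had 1964, 2046 and 2484 normalized counts at day 3, then 2741, 2622 and 2474, with a difference of 0.28 (limma adjusted p = 0.305). Dlg3, the other Dlg protein of excitatory synapses, had a difference of 0.27 (limma adjusted p = 0.327) and groups that did not overlap. Dlg5, a more distant relative, had -0.09 (limma adjusted p = 0.810), a sign that turned without day 3 replicate 1 and without day 28 replicate 2. Dlgap5, a mitotic protein of the same family, had 10 reads or fewer in every library and was not tested.

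The Homer genes, whose proteins link Shank to metabotropic glutamate receptors, had differences of both signs, and none passed. Homer1 had 1760, 2533 and 2990 normalized counts at day 3 and 3641, 3218 and 3624 at day 28, a difference of 0.56 (SE 0.17, limma adjusted p = 0.218). Leaving out day 3 replicate 1 gave 0.34, and leaving out replicate 3 of that day gave 0.72 (limma adjusted p = 0.0441). Its groups did not overlap, and the long and the activity-induced short form of the gene were not separated in the table. Homer2 had a difference of 0.34 (limma adjusted p = 0.296). Homer3, which is abundant in Purkinje cells, had 1090, 1360 and 214 at day 3 and 164, 139 and 248 at day 28, a difference of -1.93 (SE 0.60, limma adjusted p = 0.218). Its highest levels were in the 2 libraries with the most cerebellar transcripts, and with those left out the difference was -0.26. Without day 3 replicate 3 it was -2.77 (limma adjusted p = 0.0047).

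Of the 17 adaptors and spine actin linkers, 15 had a positive difference, 7 had non-overlapping groups with day 28 higher, against 9.71% of all tested genes, and 0 passed. Their median of 0.28 was 0.16 without day 3 replicate 1 and 0.064 without day 3 replicates 1 and 2. Lrrc7, or densin, which anchors CaM kinase II, had a difference of 0.77 (SE 0.16, limma adjusted p = 0.102). Ppp1r9a, or neurabin, which holds protein phosphatase 1 at spines, had 0.57 (SE 0.10, limma adjusted p = 0.0750). Among the 16 enzymes and regulators, 12 were positive, 8 had non-overlapping groups with day 28 higher, against the same 9.71%, and 0 passed. Their median of 0.36 was 0.16 without day 3 replicates 1 and 2. Arhgap32, a GTPase activating protein, had 0.58 (SE 0.10, limma adjusted p = 0.0736).

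Of 11 adhesion proteins of the postsynapse, 1 had groups that did not overlap with day 28 higher, against 9.71% of all tested genes. In all, 6 of the 11 were positive and 0 passed. Their median of 0.10 changed sign, to -0.046 without day 3 replicate 1, -0.034 with the cerebellar covariate and -0.091 without day 3 replicates 1 and 2. The smallest p values were those of Lrrtm2, a neurexin ligand (0.41, limma adjusted p = 0.281), and Nlgn1, the neuroligin of excitatory synapses (0.26, limma adjusted p = 0.295). Of 12 glutamate receptor and auxiliary subunit genes, 9 were positive and 0 passed, with a median of 0.36. That median was 0.17 without day 3 replicates 1 and 2. Of the 12, 7 had groups that did not overlap with day 28 higher, against the same 9.71%. Grin2b, an NMDA receptor subunit held by the Dlg scaffolds, stood at 4767, 3829 and 5316 at day 3 and at 7015, 7369 and 8339 at day 28, a difference of 0.72 (SE 0.13, limma adjusted p = 0.0769), as large as that of Dlgap2 but with a wider spread at day 3. Grm5, the metabotropic receptor bound by Homer, had 0.56 (limma adjusted p = 0.126). The 7 genes of the inhibitory postsynaptic scaffold had a median of 0.12 with 6 positive and 0 past the threshold, and it was 0.072 without day 28 replicate 1 and 0.023 without day 3 replicates 1 and 2. Among them the adhesion gene Slitrk3 had 0.39 (limma adjusted p = 0.327), which was 0.26 with day 3 replicate 2 left out, 0.58 with replicate 3 of that day left out (limma adjusted p = 0.0331) and 0.023 with its replicates 1 and 2 left out.

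The genes whose profiles over the 6 libraries lay closest to that of Dlgap2 were not among the 9. By the root mean square difference of log2 values centred on each gene's own mean, the 5 nearest were Rasgef1c (0.06), Drc1 (0.07), Zfp697 (0.07), Pcdhga3 (0.07) and Fbxo32 (0.08). Their differences between the days ran from 0.65 to 0.82. The nearest scaffold gene, Dlg2, had a distance of 0.23 and was 656th of 16161 genes, and Shank2 was the farthest with 0.34.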

How the data were processed

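Polyadenylated RNA of 6 brain libraries was sequenced after stranded library preparation, per the labels' protocols. The deposited table held log2 values, with genome build GRCm39 per the submitters' processing notes. The aligner, counter, strand setting and annotation are not given in the sources used here. When each deposited value was raised from log2 and reduced by 1, the result was a whole number of reads (to within 0.001) divided by a factor of its library, for 100% of entries. These factors ran from 0.822 to 1.12. Symbols came from GENCODE M21 and matched 52073 identifiers, including all 9 members. That release and the promoter table belong to an older build, so no coordinate was applied to the deposited table, and lengths are of M21 transcripts.

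Genes averaging 10 or more normalized counts entered limma 3.58.1 (R 4.3.3), fitted to the log2 values with group alone, an intensity trend and 4 residual degrees of freedom. P-values are two-sided and Benjamini-Hochberg adjusted over every gene fitted. The procedure was tested on simulated data, whose changes were larger than those of the scaffold genes and whose libraries did not differ in tissue content. Libraries of a group differed beyond sampling noise (lowest chi-square per degree of freedom 8.93) and each counted as 1 sample. The members and gene lists were chosen with earlier results of these data known. Named partners were all family relatives and Homer genes, and in each other list any gene past the threshold plus the 2 of smallest p, apart from some that are not reported here. Alternatives covered the pseudocount, filter, scaling, variance model, weights, replicate block, a cerebellar covariate, voom and left-out libraries. Sequence shared between paralogs was not examined, and their values are uncertain to that extent. Figures were drawn with matplotlib 3.10.9.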

Additional observations from a re-analysis of the deposited data

How the results depend on the processing

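The number of genes changed, 31 as reported, was 48 with the filter lowered to a mean of 1, 69 with library weights, 152 at an adjusted p threshold of 0.1, 3 with no intensity trend, 2 with the cerebellar covariate, 0 with voom on recovered reads (2113 at unadjusted p under 0.05), and 0 with a replicate block (2386 at unadjusted p under 0.05). With single libraries left out it ran from 1 to 623, the highest without day 3 replicate 3, and without day 3 replicates 1 and 2, added after the data were seen, it was 0 (1904 at unadjusted p under 0.05). The number of scaffold genes changed, 1 as reported, was 0 with no intensity trend, the replicate block, the cerebellar covariate, voom and without day 3 replicates 1 and 2, and ran from 0 to 1 with single libraries left out. The Dlgap2 log2 difference was 0.72 with no intensity trend (limma adjusted p = 0.254), 0.72 with the replicate block (adjusted p = 0.0850), 0.67 with the cerebellar covariate (adjusted p = 0.288), 0.72 with voom (adjusted p = 0.0534) and 0.68 without day 3 replicates 1 and 2 (adjusted p = 0.216). It ran from 0.67 to 0.74 over the fits lacking 1 library. For the scaffold members the median log2 difference was 0.14 with the cerebellar covariate, 0.079 without day 3 replicates 1 and 2, and 0.16 to 0.35 with single libraries left out. The Dlgap4 log2 difference turned to -0.040 with the cerebellar covariate, -0.10 without day 3 replicates 1 and 2 and -0.0045 without day 3 replicate 1, with 0.21 as its highest value among left-out libraries. The Dlg4 log2 difference was -0.0092 without day 3 replicates 1 and 2. For Dlg5 the log2 difference turned to 0.0022 on leaving out day 3 replicate 1 and to 0.018 on leaving out day 28 replicate 2, and the lowest value was -0.16. Dlgap1, Dlgap3, Shank1, Shank2, Shank3 and Dlg2 were positive and not past the threshold in all 17 settings. The cause of these shifts was not tested. The replicate numbers gave no sign of pairing, with correlations of deviations of 0.03, 0.13 and -0.06 for same-numbered libraries. Partner genes and list medians were run through the same settings after the data were seen. For Dlgap2, with 495 to 1149 reads per library, counting error is as large as the spread seen at day 3, so depth limits what can be said of its spread.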
